A study of Danio rerio with 2 samples.

Results

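Cycling endothelial cells are described here from zebrafish embryos at 24 hpf. They were taken as cells with at least 2 UMIs summed over *kdrl* and *cdh5*, at least 1 UMI of each of at least 4 of the 6 cycle markers *mki67*, *plk1*, *ccnb1*, *cdk1*, *aurkb* and *kpna2*, of which *mki67* or *plk1* was 1, and fewer than 3 UMIs of *alas2*, an erythroid gene. A UMI, or unique molecular identifier, marks 1 captured mRNA molecule. The rule found 3088 cells among the 13714 cells that passed the same *kdrl*, *cdh5* and *alas2* gates, which are called endothelial cells below, and among 25864 cells in all. WT embryos gave 1807 of them and *akt*Δ/Δ embryos gave 1281. They were compared with the 7884 endothelial cells that had 0 UMIs of *mki67* and *plk1* (4721 of WT and 3163 of *akt*Δ/Δ), called comparison cells, and the other 1583 WT and 1159 *akt*Δ/Δ endothelial cells belonged to neither class.

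The cells were sorted as *kdrl*:mCherry+ from whole dissociated embryos, and 1 droplet library was made from each genotype. The *akt*Δ/Δ embryos carried CRISPR mutations with a premature stop in all of *akt1*, *akt2*, *akt3a* and *akt3b*, and are called the mutant below; both groups had the Tg(flt4:YFP; kdrl:mCherry) background and received no treatment. The reporter is driven by *kdrl*, which is not expressed in endothelium alone, and a library holds the cells of many pooled embryos. With 1 library per genotype no test was possible between genotypes, and cells are not replicates. Intervals are exact 95% intervals of counting error only.

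A dividing cell copies its DNA in S phase, passes through G2 and separates its chromosomes in mitosis (M phase). Replication genes such as the MCM helicase subunits are transcribed as cells enter S phase, whereas *ccnb1*, *plk1*, *aurkb* and *kpna2* peak in G2 and mitosis, and *mki67* codes for a protein that coats mitotic chromosomes. In the embryo, endothelial cells divide while the first artery and vein form, and cell cycle arrest is known to go with arterial identity in mouse vessels.

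The members had more UMIs and detected genes per cell than comparison cells. The median cycling cell had 8644 UMIs and 2214 detected genes in WT and 13013 UMIs and 2815 genes in the mutant, against 5511 UMIs and 1609 genes and 8526 UMIs and 2032 genes in comparison cells. The median UMI number of cycling cells was therefore 1.57 times that of comparison cells in WT and 1.53 times in the mutant. The choice of cells itself favours such ratios, since members needed detected markers and comparison cells needed markers to be absent. Detection is more likely in deep cells and absence in shallow ones. How much of the ratios came from this choice, rather than from the RNA content of the cells, was not tested. Cycling cells held 30.7% of all endothelial UMIs in WT and 31.8% in the mutant. The share of UMIs from mitochondrial genes was 0.944% and 0.987% in cycling cells and 0.981% and 1.08% in comparison cells. The libraries shared 225 cell barcodes, of which 63 were endothelial and 5 cycling in both. Doublets were not removed. The number of cells with the highest doublet scores was set in advance from the size of each library, at 0.8% per 1000 cells. This took 13.1% of all WT and 7.57% of all mutant cells, so the shares cannot be compared between libraries. These cells made up 15.9% of cycling and 11.3% of comparison cells in WT and 8.98% and 4.9% in the mutant.

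Cycling cells made up 22.3% of endothelial cells in WT (21.4 to 23.2) and 22.9% in the mutant (21.8 to 24.0). Because the rule needs detected markers, this share depended on depth, and the mutant library was the deeper one. Of endothelial cells under 2000 UMIs, 2.21% were cycling in WT (1.21 to 3.68) and 1.41% in the mutant (0.517 to 3.03), and of those with 2000 to 4000 UMIs, 9.0% (7.37 to 10.9) and 9.51% (6.64 to 13.1). Of endothelial cells with 4000 to 8000 UMIs, 16.8% were cycling in WT (15.7 to 18.1) and 11.1% in the mutant (9.46 to 13.0). Of those with 8000 to 16000 UMIs, 38.9% (36.8 to 40.9) and 25.2% (23.6 to 26.8) were cycling, and of those with 16000 to 32000 UMIs, 62.2% (56.3 to 67.8) and 53.4% (49.5 to 57.2). The intervals of the libraries overlapped in the bins under 4000 UMIs and in the last, and did not overlap in the 2 between. Above 32000 UMIs, where few cells lay, 3 of 9 WT and 25 of 31 mutant cells were cycling, which the plot of shares by depth leaves out.

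**Figure D1:**
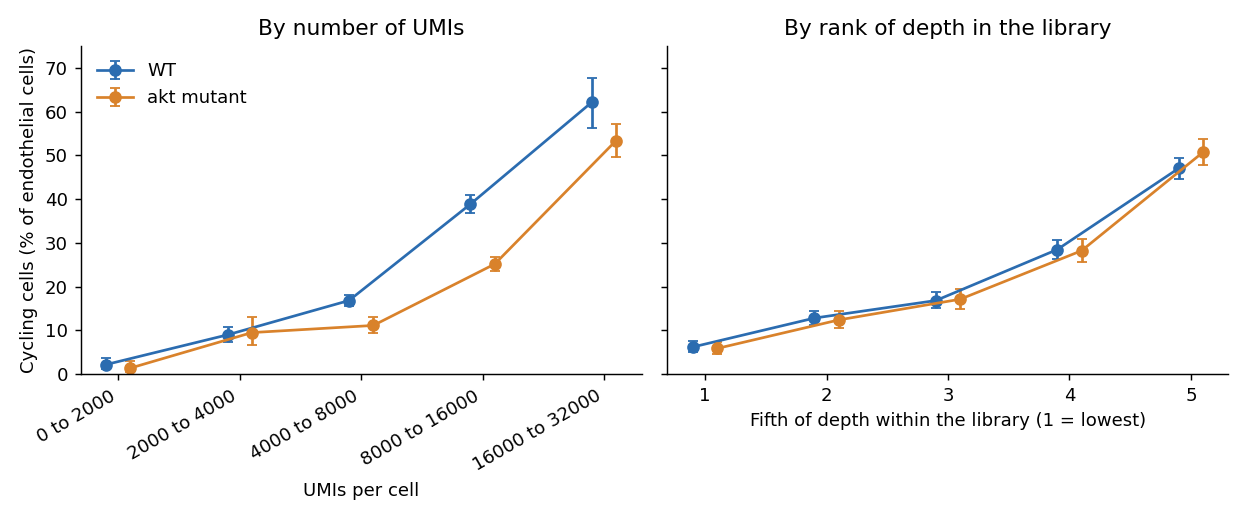
Cycling cells as a percentage of endothelial cells (y axis) by the number of UMIs per cell (left) and by rank of depth within each library in 5 equal groups (right), for WT (blue) and the mutant (orange, named akt mutant); bars are exact 95% binomial intervals. At equal UMI numbers between 4000 and 32000, WT lay above the mutant, with 38.9% against 25.2% at 8000 to 16000 UMIs, whereas by rank of depth all 5 pairs of intervals overlapped.

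When cells were instead ranked by depth within their own library, the shares ran side by side, from 6.22% in WT and 5.89% in the mutant in the shallowest of 5 equal groups to 47.0% (44.6 to 49.5) and 50.7% (47.7 to 53.7) in the deepest, and all 5 pairs of intervals overlapped. When UMIs were thinned so that both libraries had equal depths, rank by rank, the share was 22.3% in WT and 20.3% in the mutant (mean of 10 draws, from 20.1 to 20.5). With every cell thinned to 3000 UMIs it was 12.4% (11.5 to 13.4) and 9.73% (8.70 to 10.8), so the order of the genotypes turned with the treatment of depth. Depth and genotype cannot be told apart with 1 library each.

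Most members had more markers than the rule asked for. All 6 markers were detected in 769 WT and 617 mutant cycling cells, 5 in 591 and 395, and 4 in 447 and 269. *ccnb1*, the B-type cyclin of mitotic entry, was the marker most often missing, with a UMI in 66.7% of cycling cells in WT and 66.3% in the mutant, and each of the other 5 was seen in 86.8% to 95.7%. *mki67* and *plk1* were both present in 78.1% and 84.4%. Just outside the threshold were 392 WT and 266 mutant endothelial cells with 3 markers including *mki67* or *plk1*, and 19 and 18 cells that had the other 4 markers but neither of these. Among cells that met the cycle rule and the *alas2* limit, 182 in WT and 94 in the mutant had exactly 2 UMIs of *kdrl* and *cdh5*, just inside, and 307 and 121 had 1, just outside. For *alas2*, 21 and 0 members had 2 UMIs and 9 and 0 cells that otherwise passed had 3.

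The rule was also applied to cells that should hold few cycle transcripts. Among post-mitotic cells outside the endothelial gate, 0 of 32 WT cells with neuron markers passed the cycle rule, which allows up to 10.9%, at a median of 7879.5 UMIs, and 0 of 12 in the mutant, which allows up to 26.5%, at 11542.5 UMIs. Of cells with skeletal muscle markers, 4 of 165 passed in WT (2.42%, 0.664 to 6.09) at a median of 4277 UMIs and 0 of 41 in the mutant (up to 8.60%) at 4165. The summed level of the 6 markers, in CPM (UMIs per 1000000 UMIs of the same cells), was 73.9 in WT neuron-marker cells, 102 in WT muscle-marker cells, 84.6 in WT comparison cells and 1969 in WT cycling cells.

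Markers of other cell types moved with the rule. The list of 10 neutrophil and macrophage genes summed to 2087 CPM in WT cycling and 489 CPM in WT comparison cells, and to 443 and 127 CPM in the mutant. Most of it was *lyz*, the lysozyme gene, at 1656 and 370 CPM in WT and 313 and 64.8 CPM in the mutant. *marco* was at 0 in both mutant classes and *csf1ra* in the mutant comparison cells, and no other gene of this list was at 0. At least 3 of these genes and 10 UMIs of them were present in 115 of the WT cycling cells (6.36%, 5.28 to 7.59) and 45 of the comparison cells (0.953%), and in 34 (2.65%, 1.84 to 3.69) and 15 (0.474%) in the mutant. Counting also neural, skeletal muscle, fibroblast, epidermal and notochord lists, 175 WT cycling cells (9.68%) and 48 in the mutant (3.75%) carried such a set, against 2.94% and 1.23% of comparison cells. With comparison cells weighted to the depth of the cycling cells, the median log2 ratio of the neutrophil and macrophage list went from 2.0 to 0.49 in WT and from 1.45 to -0.04 in the mutant, where 3 intervals lay above 0 and 1 below. Some values without these 223 cycling cells, chosen for removal after the data had been seen, are given below. Not every value that changed is given.

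Across all genes, 15550 were compared between cycling and comparison cells in WT and 14674 in the mutant, each with at least 20 UMIs over both classes. A gene was counted as higher or lower when it was at least 2-fold apart and its interval left out 0 on the log2 scale. In WT 7.64% of genes were higher and 3.65% lower, and in the mutant 6.96% and 2.11%. Of the 14227 genes compared in both libraries, 4.7% were higher in both and 0.78% lower in both. Without the cells that carried markers of another type, the count of genes at least 2-fold apart went from 1756 to 1089 in WT and from 1332 to 1110 in the mutant. The classes were chosen by expression in these same cells, so the ratios below are descriptions.

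Outside the rule genes and ranked by the library with the smaller ratio, the genes highest in cycling cells were *cenpf*, *kif14*, *aspm*, *si:ch211-69g19.2*, *g2e3*, *tacc3*, *top2a*, *parpbp*, *fam83d* and *kifc1*. *cenpf*, a protein of the outer kinetochore, was at 82.5 CPM in WT cycling cells and 4.07 CPM in WT comparison cells, and at 85.6 and 2.54 CPM in the mutant, which are log2 ratios of 4.34 (4.07 to 4.63) and 5.07 (4.72 to 5.44). *aspm*, which focuses spindle poles, was at 137 and 6.87 CPM in WT and at 114 and 4.17 CPM in the mutant. *top2a*, the topoisomerase that untangles sister chromatids, was at 205 and 11.6 CPM in WT and at 169 and 6.53 CPM in the mutant. In both libraries each of these 3 genes was more than 10 times as high in cycling as in comparison cells.

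The list of G2 and M phase genes was higher as a whole. Of its 32 members outside the rule, 29 were at least 2-fold higher in WT and 28 in the mutant, where 7.64% and 6.96% of all genes were, and 0 were lower. The median log2 ratio of the list was 3.54 and 3.91, beside 0.01 and 0.05 over all genes. *ube2c*, the ubiquitin-conjugating enzyme of the anaphase-promoting complex, was at 498 and 39.3 CPM in WT and 454 and 29.7 CPM in the mutant. *tpx2*, a spindle assembly factor that activates Aurora A, was at 280 and 18.4 CPM in WT and 235 and 12.8 CPM in the mutant. *foxm1*, which codes for a transcription factor of G2 and M genes, was low in level but as far apart, at 13.4 and 1.01 CPM in WT and 12.8 and 0.701 CPM in the mutant. The members under 2-fold in both libraries were *ranbp1*, *lmnb1* and *ran*, of nuclear transport and the nuclear lamina, and *ran* was at 1131 and 873 CPM in WT and 1214 and 932 CPM in the mutant, abundant in both classes. The highest level belonged to *hmgb2a*, a chromatin protein, at 4426 and 1655 CPM in WT and 4386 and 1530 CPM in the mutant.

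The machinery of chromosome segregation behaved alike. Of all genes, 7.64% were at least 2-fold higher in WT and 6.96% in the mutant. All 19 genes of mitotic kinesins and cytokinesis were so in each library. Their median log2 ratios were 3.73 and 4.28, with a range from 1.67 for *kif15* to 4.52 for *kif14* in WT. The list holds *prc1a* and *prc1b*, which bundle midzone microtubules, *kif23* and *racgap1*, the pair that forms centralspindlin, and *anln*, a scaffold of the contractile ring. Of 19 spindle checkpoint and kinetochore genes, 17 were higher in WT and 18 in the mutant, and *mad2l1*, the checkpoint protein that holds back anaphase, was at 312 and 26.8 CPM in WT and 285 and 16.6 CPM in the mutant. *zw10*, which was under 2-fold in both libraries, had ratios of 0.63 and 0.89.

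The condensin and cohesin genes split by complex, where 7.64% of all genes in WT and 6.96% in the mutant were at least 2-fold higher. All 8 condensin genes (*smc2*, *smc4*, *ncapg*, *ncapg2*, *ncaph*, *ncaph2*, *ncapd2* and *ncapd3*), which compact chromosomes in mitosis, were at least 2-fold higher, with log2 ratios from 1.99 to 3.13 in WT and from 2.64 to 3.85 in the mutant. None of the 6 cohesin genes (*smc1al*, *smc3*, *rad21a*, *stag1b*, *stag2a* and *stag2b*), which hold sister chromatids together and also act outside division, was 2-fold apart, with log2 ratios from -0.06 to 0.91 in WT and from 0.21 to 0.86 in the mutant. *ncapg* was at 65.5 and 7.48 CPM in WT and *rad21a* at 297 and 214 CPM.

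**Figure D2:**
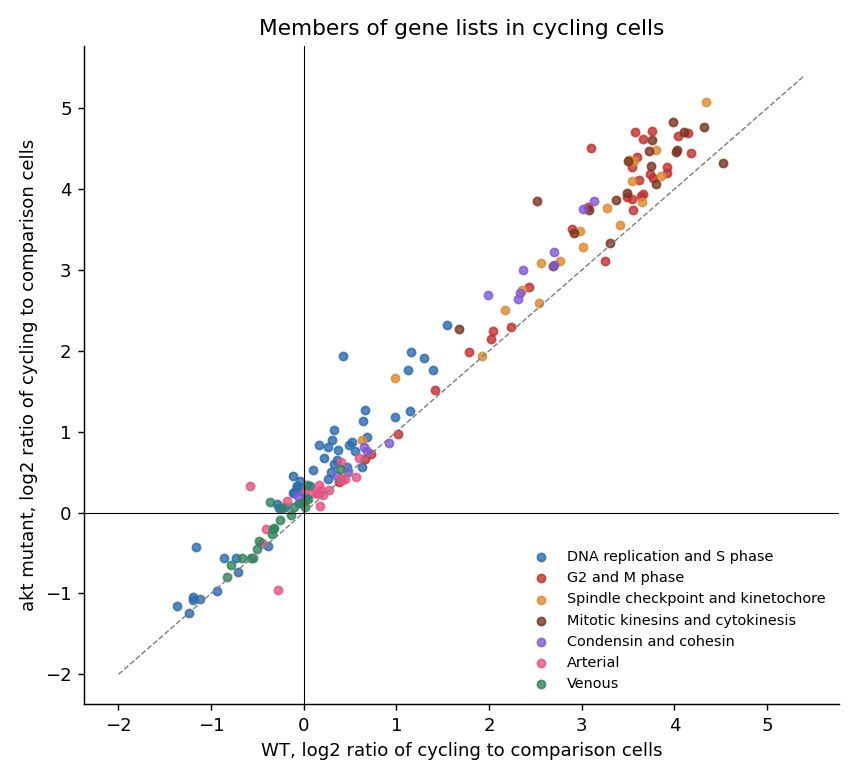
Log2 ratio of cycling to comparison cells in WT (x axis) and the mutant (y axis), each point a gene of the named list with at least 20 UMIs in each library, rule genes left out; the dashed line marks equal ratios. Mitotic genes reach past 4 in both libraries, arterial and venous genes lie between -1 and 1, and *mcm5* of the replication list lies at -1.37 and -1.15.

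Genes of DNA replication went both ways. Of 51 members, 6 were at least 2-fold higher and 6 lower in WT, and 11 higher and 5 lower in the mutant. Of all genes, 7.64% were higher and 3.65% lower in WT, and 6.96% and 2.11% in the mutant. The median log2 ratio of the list was 0.16 and 0.50. The lower ones were subunits of the helicase and of the origin recognition complex, which are loaded before replication starts. *mcm5* was at 39.9 CPM in WT cycling and 103 CPM in WT comparison cells and at 40.4 and 89.8 CPM in the mutant, log2 ratios of -1.37 (-1.49 to -1.25) and -1.15 (-1.27 to -1.03). *mcm2*, *mcm4*, *mcm6* and *orc6* had ratios from -1.24 to -1.12 in WT and from -1.24 to -1.05 in the mutant, and *mcm3* had -0.94 and -0.97.

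Among the higher members were genes of nucleotide synthesis. *rrm2*, the regulatory subunit of ribonucleotide reductase, was at 272 and 93.2 CPM in WT and at 471 and 94.4 CPM in the mutant, log2 ratios of 1.54 (1.47 to 1.61) and 2.32 (2.26 to 2.38). Its partner *rrm1*, together with *dut*, *gins3* and *cdc45*, also passed 2-fold in both libraries. *pcna*, the sliding clamp, was under 2-fold, at 348 and 282 CPM in WT and 429 and 230 CPM in the mutant. Comparison cells were defined by the absence of *mki67* and *plk1* alone, and replication genes were detected in many of them, as in the 47.5% of WT comparison cells with a *pcna* UMI.

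Members are described next by the number of markers detected, which the rule itself used, so that higher mitotic levels in cells with more markers restate it. The summed replication list was at 4074 CPM in WT cells with 4 markers, 3008 CPM with 5 and 1869 CPM with 6, and at 5324, 4155 and 2343 CPM in the mutant. The G2 and M list, its rule genes left out, went the other way, from 8829 to 10171 and 11762 CPM in WT and from 8356 to 9831 and 11191 CPM in the mutant. The kinesin and cytokinesis list went from 664 to 853 and 1328 CPM in WT and from 558 to 772 and 1170 CPM in the mutant. *rrm2* and *cdc20*, the activator of the anaphase-promoting complex, are examples, with *rrm2* at 454, 322 and 158 CPM and *cdc20* at 89.3, 151 and 253 CPM in WT. Median depth also went up, from 7363 to 8304 and 9591 UMIs in WT and from 10889 to 12556 and 14348 UMIs in the mutant, and its part in these values was not tested.

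**Figure D3:**
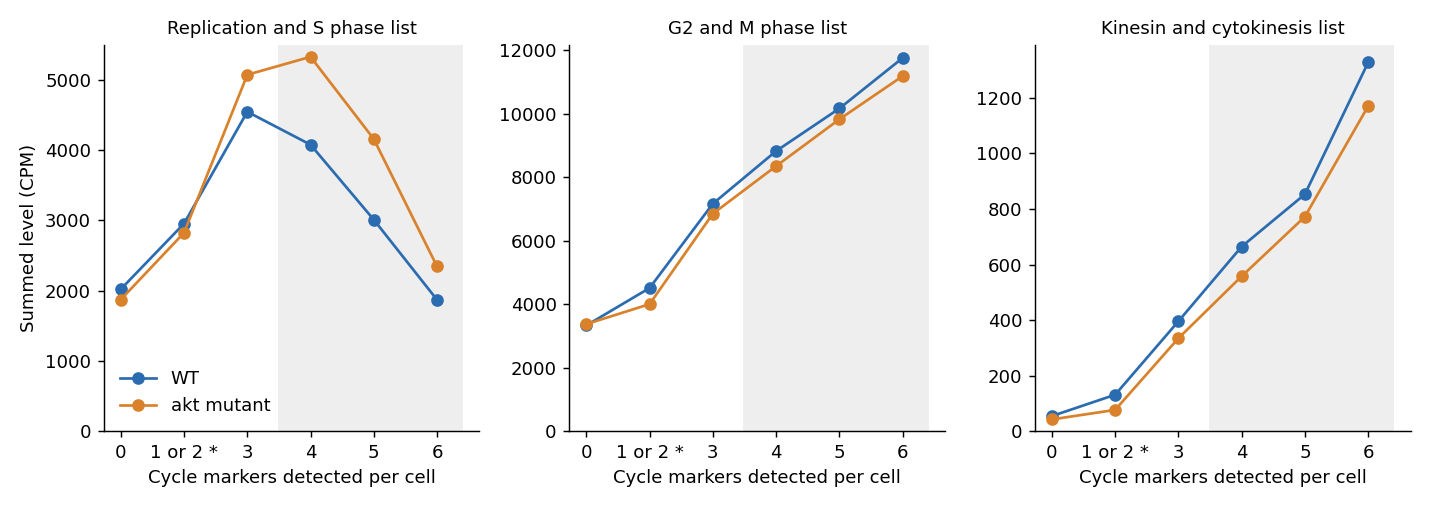
Summed level in CPM (y axis) of the replication and S phase list, the G2 and M phase list and the kinesin and cytokinesis list, rule genes left out, by the number of cycle markers detected per endothelial cell (x axis) in WT (blue) and the mutant (orange, named akt mutant); grey marks the cycling cells, the star marks cells without *mki67* and *plk1*, and points at 3 and above are cells with at least 1 of them. The replication list falls from 4074 to 1869 CPM in WT between 4 and 6 markers while the other lists, close to the rule, go up.

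Below the threshold the replication list went the other way, up with the number of markers. Endothelial cells with 3 markers including *mki67* or *plk1* had the replication list at 4543 CPM in WT and 5069 CPM in the mutant and the G2 and M list at 7170 and 6854 CPM, and cells with 0 markers had 2020 and 1873 CPM and 3334 and 3375 CPM. Per cell, the replication list took a median of 17.9 of every 10000 UMIs in WT cycling cells, with quartiles of 10.2 and 35.9, and 22.1 in the mutant, with quartiles of 11.8 and 48.7. Comparison cells had an upper quartile of 34.1 in WT, near that of the cycling cells, and 32.5 in the mutant, and endothelial cells of neither class had higher ones, 53.8 and 52.1.

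Among the factors that control these genes, *e2f8*, *mybl2b*, *lin9* and *lin54* were at least 2-fold higher in both libraries. E2f8 is a repressor of E2F targets, and Mybl2 and the Lin proteins belong to the complex that drives late cycle genes. *e2f8* was at 12.9 and 3.20 CPM in WT and 23.0 and 3.65 CPM in the mutant. Of the 17 genes compared in this list, 6 were higher in WT and 5 in the mutant, and 0 and 1 lower. Of all genes, 7.64% and 6.96% were higher and 3.65% and 2.11% lower. *e2f1*, lower in the mutant, was at 0.555 and 2.36 CPM.

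Among 22 compared genes of G1 cyclins, inhibitors and quiescence, 2 were at least 2-fold higher in each library and 0 lower, a share near the 7.64% and 6.96% of all genes. *cdkn1a*, which codes for the CDK inhibitor p21, was at 18.4 and 4.64 CPM in WT and 13.7 and 4.35 CPM in the mutant, log2 ratios of 1.99 (1.69 to 2.30) and 1.65 (1.33 to 1.98). *cdkn1cb*, a p57 gene, was at 7.53 and 3.67 CPM in WT and 7.05 and 3.28 CPM in the mutant. Both ratios stood without the cells carrying markers of another type, at 2.06 and 1.71 for *cdkn1a* and 1.13 and 1.09 for *cdkn1cb*. The D-type cyclin *ccnd2a* and the retinoblastoma gene *rb1*, which act in G1, had ratios of -0.70 and -0.71 in WT and -0.63 and -0.67 in the mutant, short of 2-fold.

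The genes lowest in cycling cells were in part genes of other tissues. They were *tnnt2c*, *uprt*, *actc1b*, *atp2a1*, *rn7sk*, *ckmb*, *tpma*, *zgc:64106*, *LOC110439627* and *mylpfa*. The 6 muscle genes among them went with a skeletal muscle list of 7 that summed to 323 and 866 CPM in WT and 53.6 and 233 CPM in the mutant. Without the cells carrying markers of another type, the ratio of *actc1b*, a muscle actin, went from -1.50 to -0.55 in WT and from -2.15 to -0.63 in the mutant. UMIs of muscle genes took part in the choice of the cells removed, so a change in muscle genes was favoured in advance. *rn7sk*, the 7SK RNA that restrains transcription elongation, was at 23.3 and 63.9 CPM in WT and 21.4 and 82.7 CPM in the mutant, and without those cells its ratio was -1.61 and -1.96. *uprt*, a gene of uracil salvage, was at 5.10 and 14.7 CPM in WT and 5.11 and 14.8 CPM in the mutant, and its ratios without those cells were -1.56 and -1.71. *zgc:64106* had -1.27 and -1.53 without those cells and *LOC110439627* -1.40 and -1.42.

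Levels of endothelial genes in the members were near those of comparison cells. Both classes had to pass the same gate of *kdrl* and *cdh5*, so similar levels of these 2 genes were favoured in advance. *kdrl*, a rule gene, was at 338 and 358 CPM in WT and 291 and 281 CPM in the mutant, and *cdh5*, VE-cadherin and also a rule gene, at 451 and 484 CPM and 437 and 441 CPM. Of 20 pan-endothelial genes outside the rule, 0 were 2-fold apart in either library. That is near the shares of all genes, 7.64% higher and 3.65% lower in WT and 6.96% and 2.11% in the mutant. The median log2 ratios of the list were -0.13 and -0.02. The sign turned with comparison cells weighted to the depth of the cycling cells, where the medians were 0.18 and 0.13, with 14 intervals above 0 and 4 below in each library. Without the cells carrying markers of another type and unweighted, the medians were -0.01 and 0.03, with 9 intervals above 0 and 8 below in WT and 10 and 5 in the mutant. With all cells and unweighted, the ratios reached from -0.39 to 0.13 in WT, with *tek*, a Tie receptor, and *tal1* at the low end. All of *clec14a*, *pecam1*, *tie1*, *fli1a*, *egfl7*, *esama* and *she* were present, *clec14a* at 878 CPM in WT cycling cells.

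Arterial genes leaned up and venous genes down in the cycling cells, by less than 2-fold. None of the 20 arterial and none of the 20 venous genes compared passed 2-fold in either library. Of all genes, 7.64% were higher and 3.65% lower in WT, and 6.96% and 2.11% in the mutant. In lists of 20 genes, none passing is near these shares. The arterial median was 0.17 in WT and 0.28 in the mutant, with 15 and 17 of 20 above 0, and the venous median was -0.33 and -0.14, with 4 and 8 above 0. With comparison cells weighted to the depth of the cycling cells, the arterial medians were 0.56 and 0.55 and the venous medians -0.18 and -0.05, and in the mutant 9 venous intervals lay above 0 and 9 below. *aqp1a.1*, an aquaporin of the dorsal aorta, was at 3043 and 2008 CPM in WT and 2914 and 1818 CPM in the mutant, log2 ratios of 0.60 (0.58 to 0.62) and 0.68 (0.66 to 0.70). *hey2*, a Notch target, was at 102 and 77.4 CPM in WT and 103 and 66.9 CPM in the mutant, and *dll4*, an arterial Notch ligand, had ratios of 0.14 (0.07 to 0.20) and 0.24 (0.17 to 0.32). *npl*, a sialic acid lyase gene, was at 131 and 233 CPM in WT and 122 and 213 CPM in the mutant, the lowest of the venous list. *lyve1b*, a hyaluronan receptor gene, was at 200 and 296 CPM and 122 and 180 CPM. The venous list was not uniform, since *aplnrb*, an apelin receptor gene, was higher in cycling cells, at 514 and 393 CPM in WT and 682 and 470 CPM in the mutant.

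Cells were also typed by detection, as artery cells when *notch3*, *efnb2a* and *dll4* all had a UMI and as vein cells when *lyve1b*, *stab2* and *dab2* all had one. Cells that met both definitions, 136 in WT and 88 in the mutant, were counted apart and left out of the shares below. Of artery cells 37.3% were cycling in WT (33.1 to 41.8) and 39.5% in the mutant (34.7 to 44.4), and of vein cells 22.6% (21.0 to 24.1) and 24.8% (22.9 to 26.7). Among cells of 4000 to 8000 UMIs the shares were 28.4% (22.6 to 34.7) and 14.9% (13.1 to 16.7) in WT, artery first, and 13.8% (7.07 to 23.3) and 12.4% (9.19 to 16.2) in the mutant, where the intervals overlapped. Among cells of 8000 to 16000 UMIs the shares were 48.7% and 34.6% in WT and 38.1% and 23.4% in the mutant, artery first. Among cells of 16000 to 32000 UMIs they were 58.5% (42.1 to 73.7) and 60.0% (49.1 to 70.2) in WT, where artery cells were not higher, and 70.9% (60.1 to 80.2) and 48.5% (42.7 to 54.3) in the mutant.

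With each cell thinned to 3000 UMIs, *dll4* was detected in 35.5% of cycling and 31.9% of comparison cells in WT and in 32.9% and 26.8% in the mutant. *lyve1b* was detected in 33.4% and 41.3% and in 23.7% and 28.4%. Unthinned, *dll4* was detected in 58.4% and 44.1% in WT and in 64.9% and 47.5% in the mutant. The thinning left out 42 WT and 19 mutant cycling cells and 793 and 473 comparison cells. All 3 artery genes, without all 3 vein genes, were seen in 26 of 1765 thinned WT cycling cells (1.47%) and 68 of 3928 comparison cells (1.73%). This share was too low at this depth to show an order.

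Of 11 sprouting and tip cell genes compared in WT, and 10 in the mutant, 1 was at least 2-fold higher in each, near the 7.64% and 6.96% of all genes. It was *cxcr4b*, a chemokine receptor gene, at 34.6 and 9.89 CPM in WT and 24.7 and 9.0 CPM in the mutant. This gene moved with the cells of other types: without them its log2 ratio went from 1.81 to 0.28 in WT and from 1.45 to 0.70 in the mutant. *myb*, of a list of 5 hematopoietic progenitor genes, did likewise, from 1.42 to 0.46 and from 1.18 to 0.44. *lyz* went from 2.16 to -0.30 in WT and from 2.27 to -0.16 in the mutant, where its own UMIs took part in the choice of the cells removed.

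Between genotypes, the mutated genes were looked at first, in the cycling cells. *akt2* had 14.6 CPM (12.9 to 16.5) in the WT library and 11.6 CPM (10.1 to 13.3) in the mutant library, a log2 ratio of -0.33 (-0.60 to -0.06). *akt3b* was at 8.40 and 8.11 CPM, a ratio of -0.05 (-0.39 to 0.29), and *akt3a* at 0.811 and 0.666 CPM, a ratio of -0.28 (-1.53 to 0.94). *akt1* had 1 UMI in the cycling cells of each library, and 2 UMIs in WT and 0 in mutant comparison cells. By qRT-PCR of sorted WT endothelial cells of this stage, the paper instead reports *akt1* as the highest of the *akt* genes expressed. Why so few *akt1* UMIs were counted here was not tested, so these counts do not show that the cells lacked *akt1*. Only the interval of *akt2* left out 0 in cycling cells, and with depths made equal by thinning it was -0.31 (-0.63 to 0.01). In comparison cells, depths not made equal, *akt2* had -0.59 (-0.83 to -0.34), *akt3b* 0.07 (-0.20 to 0.33) and *akt3a* 0.50 (-0.61 to 1.66). In both classes the intervals of *akt2* and *akt3b* left out a 2-fold lower level. With depths not made equal, those of *akt2* lay below 0 in both classes and those of *akt3b* held 0. These mRNA levels do not decide whether the label holds. Counts per gene do not show the mutations, so whether the cells carried them was not tested. The mutant stands here for the library labelled as such. In pooled embryos of a later stage, the paper reports lower mRNA of each *akt* gene by qRT-PCR and diminished Akt activity by western blot.

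Of 14511 genes compared between the mutant and WT cycling cells, 2.58% were at least 2-fold higher in the mutant and 8.57% lower, 16.3% had an interval above 0 at any fold and 24% an interval below it, and the median log2 ratio was -0.06. Without the cells carrying markers of another type, 342 genes were higher and 762 lower, against 374 and 1243 with them. Genes of blood and muscle were among those lower in the mutant: the erythroid list had a median of -1.38 in cycling and -1.62 in comparison cells, and the neutrophil and macrophage list -2.33 and -1.81. The dissociation stress list was lower too, with a median of -0.64 and 13 of 16 intervals below 0 in cycling cells and -0.65 and 12 of 16 in comparison cells. Glycolysis had -0.51 and 14 of 20 in cycling cells and -0.12 and 11 of 19 in comparison cells. The median over all genes in comparison cells was -0.11. Without the cells carrying markers of another type, glycolysis in cycling cells had -0.19 and 9 of 20. The part of these lists in the differences below was not tested.

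Replication genes leaned higher and the G2 and M list lower in the mutant cycling cells, by less than 2-fold, and the other mitotic lists were mixed. Of 51 replication genes, 28 had an interval above 0 and 2 below it, with a median log2 ratio of 0.21. Of 32 G2 and M genes, 5 were above and 19 below, with a median of -0.18. The kinesin and cytokinesis list had 3 above and 9 below (median -0.10), the spindle checkpoint and kinetochore list 2 above and 3 below (median -0.01), and the condensin and cohesin list 5 above and 0 below (median 0.08). *rrm2* had a ratio of 0.80 (0.74 to 0.85), *dut*, which keeps uracil out of DNA, 0.68 (0.60 to 0.75), *ccne2*, the cyclin of S phase entry, 0.71 (0.40 to 1.04), *mcm7* 0.50 (0.42 to 0.59) and *pcna* 0.30 (0.25 to 0.35). In comparison cells the median of the replication list was -0.12, near the -0.11 of all genes there. Of the same genes, *rrm2* had 0.02 (-0.06 to 0.10), *ccne2* -0.80 (-1.19 to -0.42) and *pcna* -0.29 (-0.34 to -0.25), whereas *dut* had 0.57 (0.48 to 0.66).

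Rule genes helped choose the cells and the mutant library was deeper, so lower levels of them in the mutant were favoured in advance. Of these genes, *kpna2*, an importin gene, was at 554 CPM in WT and 396 CPM in mutant cycling cells, a ratio of -0.48 (-0.53 to -0.44). *ccnb1* had -0.26 (-0.34 to -0.19) and *aurkb*, the kinase of the chromosomal passenger complex, 0.03 (-0.03 to 0.09). Outside the rule, *cdca8*, another subunit of that complex, had -0.46 (-0.53 to -0.38) and *ccnb2* -0.53 (-0.73 to -0.33). *fbxo5*, an inhibitor of the anaphase-promoting complex that accumulates in S phase, went against the list, at 0.33 (0.18 to 0.48).

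The rule finds members by detection, and at greater depth cells with fewer marker transcripts pass it. With depths made equal by thinning and the rule applied again, the median was 0.12 for the replication list, with 19 of 51 intervals above 0 and 3 below, and -0.11 for the G2 and M list, with 5 above and 14 below. *rrm2* was then at 0.69 (0.63 to 0.75), *dut* at 0.63 (0.55 to 0.72), *pcna* at 0.17 (0.12 to 0.23), *ccne2* at 0.42 (0.04 to 0.79) and *kpna2* at -0.35 (-0.40 to -0.30). Within cells that had all 6 markers, at full depth, the medians were 0.24 and -0.20. In cycling cells the directions held in both, and the replication and G2 and M medians were closer to 0 at the same depths. The thinning made depths equal over all endothelial cells, not within each class. The cycling cells then chosen had medians of 8642 UMIs in WT and 9342 in the mutant, and the comparison cells 5511 and 5669.5. Depth also bears on comparison cells, which needed 0 UMIs of *mki67* and *plk1*. At the same depths their replication median was -0.05, with 9 intervals above 0 and 8 below, against 6 and 24 unthinned.

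**Figure D4:**
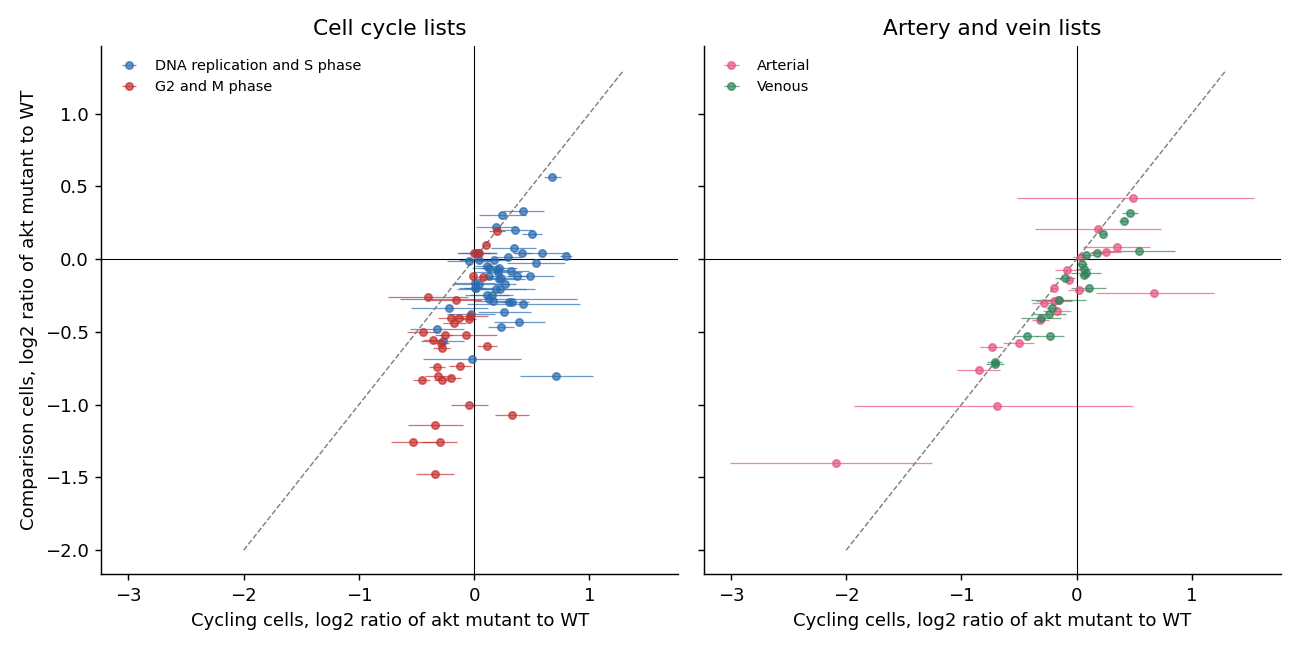
Log2 ratio of mutant to WT (akt mutant to WT on the axes) in cycling cells (x axis, with exact 95% intervals) and comparison cells (y axis) for genes of the replication and the G2 and M lists (left) and of the arterial and venous lists (right), rule genes left out and at least 20 UMIs in each class; the dashed line marks equal ratios. Replication genes lie mostly right of 0 in cycling cells, with a median of 0.21, where all genes had -0.06. In comparison cells their median was -0.12, near the -0.11 of all genes. Most arterial and venous genes lie near the line. Depths are not made equal here, and at the same depths the replication medians were 0.12 and -0.05.

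*dlc*, a Notch ligand gene, was at 37.1 CPM in WT and 20.6 CPM in mutant cycling cells, a log2 ratio of -0.85 (-1.04 to -0.66), and had -0.76 (-0.92 to -0.60) in comparison cells. *vegfc*, a growth factor gene, had -0.50 (-0.64 to -0.37) and -0.58 (-0.69 to -0.46), *dll4* -0.32 (-0.39 to -0.24) and -0.42 (-0.48 to -0.36), *efnb2a*, an arterial ephrin gene, -0.17 (-0.30 to -0.05) and -0.36 (-0.46 to -0.25), and *notch3* -0.20 (-0.35 to -0.04) and -0.29 (-0.42 to -0.15). The arterial list had 3 of 20 intervals above 0 and 11 below in cycling cells, with a median of -0.17, and the venous list 8 above and 8 below, with a median of 0.05. Of all genes in cycling cells, 16.3% had an interval above 0 and 24% below, with a median of -0.06. In comparison cells the arterial list had 0 above and 13 below, with a median of -0.25. The venous list there had 4 above and 13 below, and its median of -0.12 was near the -0.11 of all genes. *stab2*, a scavenger receptor gene of veins, had 0.06 (0.02 to 0.11) in cycling and -0.11 (-0.14 to -0.08) in comparison cells. In the venous list *aplnrb* had 0.41 (0.37 to 0.45), and *lyve1b* and *glula*, glutamine synthetase, each had -0.71. In cells with all 6 markers the arterial median was 0.01. Without the cells carrying markers of another type, the arterial median in cycling cells was -0.24 and the venous -0.06. The venous list then had 5 intervals above 0 and 10 below. *esm1*, a tip cell gene, was at 493 CPM in WT and 1054 CPM in mutant cycling cells, a ratio of 1.1 (1.06 to 1.13), and had 0.99 (0.96 to 1.02) in comparison cells.

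*ccnd1*, the D-type cyclin, was at 76.5 CPM in WT and 47.5 CPM in mutant cycling cells, a ratio of -0.69 (-0.81 to -0.56), and had -0.54 (-0.63 to -0.44) in comparison cells. Of 37 genes of the Akt, PI3K, mTOR and FoxO list, 0 were at least 2-fold higher in mutant cycling cells and 2 lower, beside 2.58% and 8.57% of all genes, so that the share lower was under that of all genes. The 2 were *pik3cd* and *irs2a*, at 3.24 and 0.777 CPM and at 3.13 and 1.55 CPM. *pik3cd* codes for a catalytic subunit of PI3K found mostly in leukocytes. The median of this list was 0.05.

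The genes furthest apart between the libraries were mostly features without a known role. The highest 10 in mutant cycling cells included *XLOC_020301*, *BX548028.1*, *CR749167.2*, *hist1h4l*, *CABZ01074453.1*, *XLOC_039817*, *XLOC_023492*, *RAC1* and *ccdc90b*. Most were as far apart in comparison cells, as *XLOC_020301* was, at 8.49 in cycling and 8.29 in comparison cells from 1 WT UMI in each class. *BX548028.1* differed between the classes, at 15.5 CPM in WT and 286 CPM in mutant cycling cells and at 13.1 and 50.4 CPM in comparison cells, log2 ratios of 4.21 (4.03 to 4.39) and 1.95 (1.78 to 2.12), and it was detected in 64.3% of the mutant and 12.1% of WT cycling cells. Without the cells carrying markers of another type its ratio in cycling cells was 4.18, and at the same depths 4.17. *hist1h4l*, annotated by its symbol as a histone H4 gene, was at 25.7 CPM in WT and 153 CPM in mutant cycling cells, a ratio of 2.58 (2.43 to 2.72), and had log2 ratios of cycling to comparison cells of 3.12 in WT and 3.83 in the mutant.

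The lowest 10 were *cd59*, *FO203432.1*, *LOC100330864*, *csf3b*, *si:dkey-85k7.7*, *zgc:174862*, *acod1*, *si:dkey-9c18.3*, *mfap4* and *BX901942.1*. *si:dkey-85k7.7* was detected in 43.1% of WT and 1.48% of mutant cycling cells, at 143 and 1.05 CPM, and was as far apart in comparison cells, at 129 and 1.44 CPM. *csf3b*, *acod1* and *mfap4*, genes of myeloid cells, were found in 1.44%, 2.55% and 6.36% of WT cycling cells, so that their levels came from few cells.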

How the data were processed

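Raw UMI counts per gene and cell, in 1 matrix per genotype, were used as the authors deposited them; the submitters' processing notes name Cell Ranger 5.0.0 and Seurat, whereas the build and gene annotation behind them were not given in the sources used here. The members and gene lists were chosen with earlier results of these data known. Cells with at least 200 detected genes entered, in both classes with fewer than 3 UMIs of *alas2*. UMIs were summed per class and library and divided by the class total (CPM). Log2 ratios carry exact binomial intervals and CPM values exact Poisson intervals, shares exact Clopper-Pearson intervals, all at 95% and for counting error only. With 1 library per genotype no test across samples exists and no p-value was computed. Of the 36351 genes, 216 symbols occur more than once.

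Named genes were the rule genes and the *akt* genes, the 10 highest and 10 lowest ratios among genes with at least 200 UMIs, up to 4 members of each of 23 lists with the most UMIs, called members where 6 or fewer were called, and genes the study names for its single cells; other list members were named after their values were seen. Doublets were scored with Scrublet in scanpy 1.11.5. Alternatives changed depth, gates, minimum UMIs, scaling (TMM in edgeR 4.0.16, R 4.3.3), doublets and cells with markers of another type. Python 3.11.15, numpy 2.4.6, scipy 1.17.1 and pandas 2.3.3 were used, and the code was tested on simulated data.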

Additional observations from a re-analysis of the deposited data

Results flagged for a closer look

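In 16 genes the ratio of cycling to comparison cells was at least 2-fold and of opposite sign in the libraries. The difference between libraries was not tested, since each genotype has 1 library, and without the cells carrying markers of another type 2 of the 16 were still opposite. Lower in WT and higher in mutant cycling cells, on the log2 scale, were *CABZ01021592.1* (-1.97 and 2.90), *gch2* (-1.53 and 1.64), *krt97* (-1.20 and 1.80), *pmela* (-3.37 and 1.27), *rassf7b* (-1.04 and 1.105), *si:ch211-243g18.2* (-1.1 and 3.56), *si:dkey-248g15.3* (-1.93 and 2.06) and *smyhc1* (-1.80 and 1.86). Among them *pmela*, a melanosome gene, rested on 6 and 100 UMIs in WT and 16 and 10 UMIs in the mutant.

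Higher in WT and lower in mutant cycling cells were *lgals2a* (2.08 and -1.35), *mfap4* (1.99 and -2.72), *s100s* (1.27 and -1.08), *si:ch211-42i9.8* (1.14 and -1.36), *si:dkey-43p13.5* (1.25 and -2.22), *si:zfos-2330d3.3* (2.49 and -1.56) and *slc7a7* (1.36 and -1.32). *havcr1* had 1.94 in WT and 0 UMIs against 20 in the mutant, where -2.15 is a bound computed with 3 counts in place of 0.

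In 3 genes the ratio of mutant to WT had opposite signs in cycling and comparison cells, which was not tested either. *cyp24a1*, which codes for the vitamin D 24-hydroxylase, had 2.83 in cycling and -2.59 in comparison cells, *krt91* -1.20 and 1.76, and *si:ch211-243g18.2* 1.08 and -3.58. They rested on few UMIs. With WT first, *cyp24a1* had 12 and 89 in cycling and 37 and 6 in comparison cells. *krt91* had 22 and 10, then 43 and 142, and *si:ch211-243g18.2* had 25 and 55, then 86 and 7.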

How the results depend on the processing

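The share of cycling cells, 22.3% in WT and 22.9% in the mutant, moved with depth and gates. It was 12.4% and 9.73% with every cell thinned to 3000 UMIs, 20.3% in the mutant at the same depths as WT, 26.8% and 26.3% with at least 4 UMIs of *kdrl* and *cdh5*, 27.1% and 27.6% with at least 3 markers, 16.8% and 18.1% with at least 5, and 21.1% in WT without cells carrying markers of another type. Genes at least 2-fold apart numbered 1756 between classes in WT, 1332 in the mutant and 1617 between genotypes. With a minimum of 100 UMIs, which tests fewer genes, they numbered 862, 662 and 610. Without cells carrying markers of another type, an alternative chosen after seeing the data, WT had 1089. With comparison cells weighted to the depth of the cycling cells, the mutant had 2041 (1272 higher and 769 lower, against 1022 and 310), and WT 2365 (1100 and 1265, against 1188 and 568); the cause was not tested.

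Of 5007 ratios recomputed for 228 genes, 3938 stayed within their interval and 1048 moved outside it. Another 21, all counted as at least 2-fold apart before, changed sign. Sign changes of other genes were not counted apart. The 3938 include 683 ratios under a minimum of 1 UMI and 683 under 100 UMIs. Those could not move, since the minimum sets only which genes are counted. Under depth weighting, WT *FO203432.1* had -0.30 and *csf3b* -0.073, and the mutant *LOC110439627* 0.0030, *coro1a* -0.081 and *mpx* -0.19. Without cells carrying markers of another type, WT *csf3b* had -1.12, *acod1* -1.03, *mfap4* -0.59, *lyz* -0.30, *npsn* -0.39, *spi1b* -0.36, *mpx* -0.73, *mpeg1.1* -1.93, *col2a1a* -0.14, *cnmd* -0.34 and *col9a3* -0.41, and the mutant *lyz* -0.16, *coro1a* -0.24 and *spi1b* -0.42. UMIs of the neutrophil and macrophage list and the notochord list took part in the choice of the cells removed. Changes in members of those lists were thus favoured in advance. In the mutant, *neurod1* had 0.0050 (-6.29 to 6.30) against comparison cells with 0 UMIs of all 6 markers. It had 0.68 (-5.61 to 6.98) without the cells of highest doublet scores. Both intervals are too wide to give a direction. No paired analysis was possible because each genotype has 1 library.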
